A study of Mus musculus with 11 samples.

Results

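The 35 genes described here mark or control the spermatogonia of the mouse testis, the germ cells that either renew themselves or start to differentiate towards meiosis. They were chosen by symbol and not by their values, though earlier results of these data were known. All 35 were found among the 22259 genes with a value. They fall into 2 receptors for the growth factor GDNF, 14 transcription regulators of the stem cell state, 4 RNA-binding proteins, 6 surface or cytoplasmic markers and 9 genes of differentiation. RNA of adult testes was sequenced in 6 libraries, 3 from Ccer1+/+ mice and 3 from Ccer1-/- mice. Ccer1 encodes a protein of spermatids, and the question for these genes was whether its loss goes with another level of transcripts made much earlier in spermatogenesis. Both groups were untreated. The Ccer1-/- mice carry frameshift deletions in the coding sequence made with CRISPR-Cas9, and the study chose its longest deletion for the work on pathology. Whether that line also gave the RNA was not given in the sources used here. A whole testis holds every germ cell stage and the somatic cells, and spermatogonia are a small part of it, and a value here is an average across these cells. In such bulk samples fewer cells of a type and less RNA per cell cannot be told apart.

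GDNF from the Sertoli and peritubular cells binds GFRA1 on undifferentiated spermatogonia, GFRA1 signals through the kinase RET, and targets such as ETV5, BCL6B and LHX1 keep the cells self-renewing. Retinoic acid then moves spermatogonia towards differentiation, when KIT, the receptor of stem cell factor, and STRA8, which acts at entry into meiosis, are made. Several of the genes are not restricted to spermatogonia. DAZL is also made in spermatocytes, KIT in Leydig cells, and DMRT1, cyclin D2 and integrin alpha 6 in Sertoli cells.

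Ccer1 itself followed the labels. Its level was 439, 610 and 529 CPM in Ccer1+/+ and 82.1, 93.0 and 88.3 CPM in Ccer1-/- testes, with the libraries in the order of replicates 1, 2 and 3 here and throughout. CPM are counts relative to a common library size after scaling of the libraries. The libraries held 15970289 to 19621550 counts. Ccer1+/+ replicate 1 stood apart from its own group, with correlations of log2 CPM of 0.963 and 0.968 with Ccer1+/+ replicates 2 and 3 and of 0.983 to 0.988 with the Ccer1-/- libraries. Replicate 3 of each genotype stood apart along the second principal component, which held 31.9% of the variance. Both facts touch the genes below. Fold changes without Ccer1+/+ replicate 1 are plotted for each of the spermatogonial genes tested.

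Of the 35 genes, 29 were high enough to be tested in whole testis (a filter that asks for about 10 counts in 3 libraries). The 6 that were not are mostly markers of the rarest undifferentiated cells. Nanos2, an RNA-binding protein that keeps stem cells undifferentiated, had 4 counts over all 6 libraries. Pax7, which marks a rare set of stem cells, had 7 counts, and Eomes, a T-box transcription factor, had 31. Nanos3, another RNA-binding protein, had 28 counts, and Upp1, uridine phosphorylase, had 32. Neurog3 (Ngn3), a marker of progenitors that leave the stem cell pool, had 1, 6 and 4 counts in Ccer1+/+ libraries and 1, 0 and 1 in Ccer1-/- libraries. At this depth a count of 0 allows up to 0.15 CPM in Ccer1+/+ replicate 1 and 0.182 to 0.185 CPM in the other libraries, for counting error only. No difference between genotypes was detectable for these 6 genes.

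The levels of the genes that were tested spread widely. Dmrtb1 (Dmrt6), which coordinates the exit from the spermatogonial program, had by far the highest level of the genes, with a mean of 333 CPM per kilobase of exon. That was above 98.9% of the tested genes with a known exon length. Which cells of the testis gave these reads was not tested, so the level cannot be assigned to spermatogonia. Uchl1 (PGP9.5), a ubiquitin hydrolase abundant in spermatogonia and in neurons, followed Dmrtb1 at 35.4, with Dazl at 26.4 CPM per kilobase. The adhesion molecule Epcam was at 13.4 and Id4, an inhibitor of basic helix-loop-helix factors and a stem cell marker, at 11.8 CPM per kilobase. Dmrt1, Stra8, Sohlh2, Etv5, Kit, Taf4b, Rhox13, Sohlh1, Gfra1, Bcl6b, Foxo1, Tspan8 and Pou5f1 lay between 6.61 and 1.17 CPM per kilobase. The other 11 lay between 0.843 for Itga6 and 0.145 for Cdh1, the gene of E-cadherin. Without the length correction the order shifted for long genes, and Etv5 and Kit then stood next to Id4 in the plot of CPM by library.

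**Figure D1:**
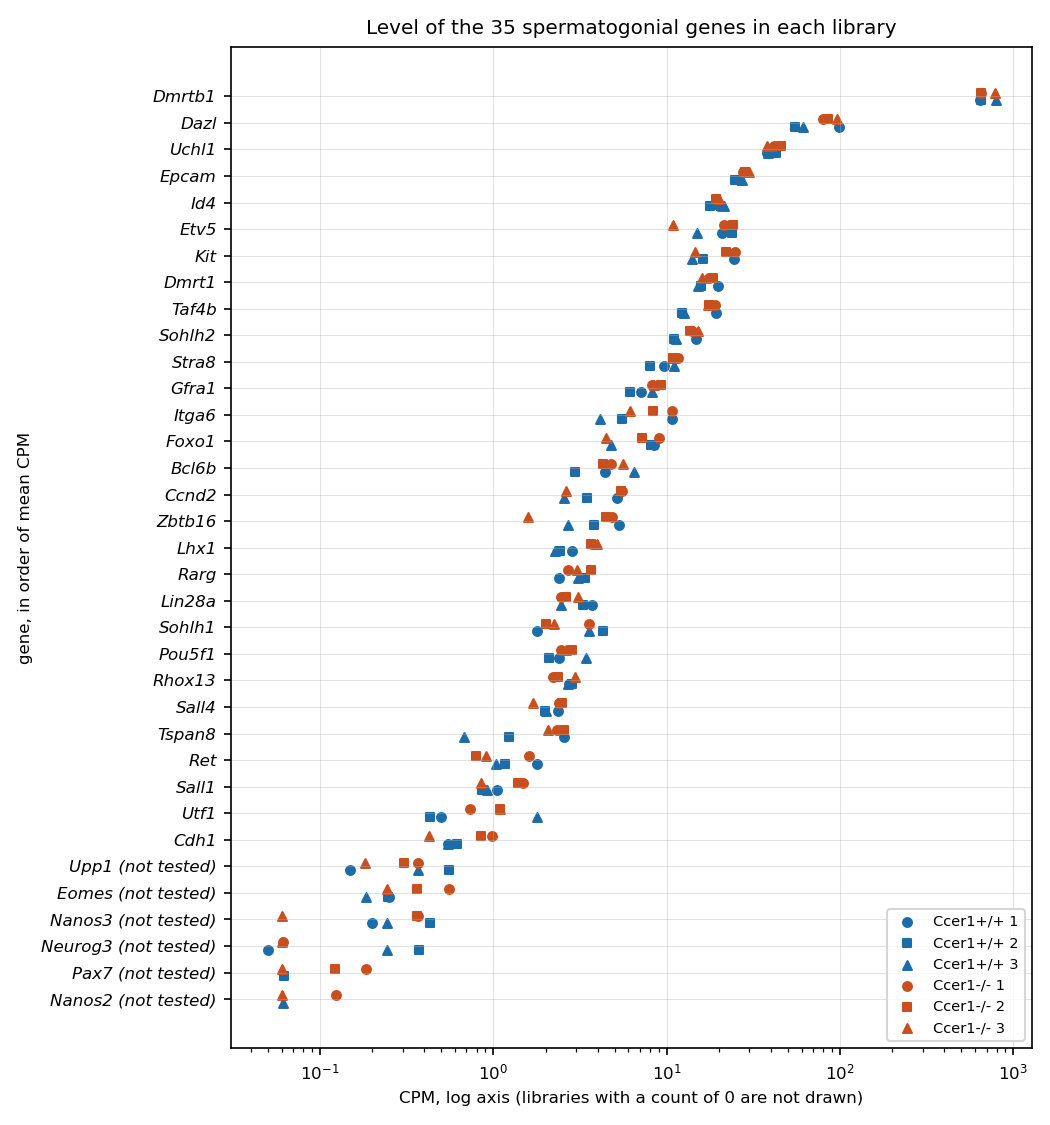
Level in CPM on a log axis of the 35 genes, in order of mean CPM, in the 3 Ccer1+/+ libraries (blue) and the 3 Ccer1-/- libraries (orange), with a symbol shape for each replicate number and no error bars, since each point is 1 library. Dmrtb1 lies at 638 to 789.7 CPM, the 6 genes that were not tested lie at the bottom, and the colors overlap for most genes.

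The promoters of the genes were searched because retinoic acid receptors, the GDNF target ETV5 and DMRT1 act on this program. RefSeq windows on the build GRCm38.p6 were found for 26 of the 35 genes, 35 windows in all, and the 250 bases before each transcript start were read on the strand of the gene. The letters AGGTCA (only part of a retinoic acid receptor site, searched on both strands with TGACCT) were in 4 of the 35 windows, or 11.4%. They were in 14.0% of all 32851 mouse windows. CCGGAA (an ETS core, with TTCCGG) was in 8.57% of the windows of these genes and in 12.0% of all. ACATTGT (a DMRT1 core, with ACAATGT) was in 2.86% and in 2.56%. No motif contains another. A match describes the letters, not a site in use.

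Of 3 windows with AGGTCA, shown because their genes act in differentiation or pluripotency, Sohlh1 has the motif at base -215, Rarg at -225 on the other strand and Pou5f1 at -33, counted from the transcript start. Lhx1 is shown because it had the smallest p of the genes, and its window holds none of the motifs. Capitals mark the motif. The windows are chr2:25847249-25847498 (minus strand) for Sohlh1, chr15:102257523-102257772 (minus) for Rarg, chr17:35505782-35506031 (plus) for Pou5f1 and chr11:84525535-84525784 (minus) for Lhx1.
Sohlh1: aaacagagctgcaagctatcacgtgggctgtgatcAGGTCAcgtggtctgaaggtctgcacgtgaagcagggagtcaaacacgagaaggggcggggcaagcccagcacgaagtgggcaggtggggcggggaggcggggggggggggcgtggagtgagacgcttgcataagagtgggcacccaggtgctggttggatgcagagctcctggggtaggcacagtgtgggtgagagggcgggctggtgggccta
Rarg: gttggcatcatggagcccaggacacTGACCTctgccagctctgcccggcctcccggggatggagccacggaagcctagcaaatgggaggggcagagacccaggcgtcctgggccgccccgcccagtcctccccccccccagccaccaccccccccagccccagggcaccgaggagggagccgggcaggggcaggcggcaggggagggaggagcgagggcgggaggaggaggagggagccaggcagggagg
Pou5f1: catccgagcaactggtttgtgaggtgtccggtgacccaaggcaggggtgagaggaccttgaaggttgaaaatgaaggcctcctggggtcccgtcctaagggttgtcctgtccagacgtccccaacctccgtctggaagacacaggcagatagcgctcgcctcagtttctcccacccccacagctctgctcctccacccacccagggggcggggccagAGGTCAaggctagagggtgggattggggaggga
Lhx1: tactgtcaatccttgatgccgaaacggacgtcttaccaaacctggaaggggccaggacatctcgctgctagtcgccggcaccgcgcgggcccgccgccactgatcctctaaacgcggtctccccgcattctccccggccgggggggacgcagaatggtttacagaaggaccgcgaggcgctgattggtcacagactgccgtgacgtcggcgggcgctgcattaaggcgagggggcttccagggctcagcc

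Stra8 was the only gene with 3 matches, 2 of AGGTCA at -194 and -38 and 1 of ACATTGT on the other strand at -145. Gfra1 had 1 match of CCGGAA at -156. These windows overlap exons of other annotated transcripts of the same genes, so only the match with 10 bases on either side is shown. The Stra8 matches are at chr6:34920744-34920769, chr6:34920900-34920925 and chr6:34920793-34920819 (plus strand), and the Gfra1 match at chr19:58455539-58455564 (minus).
Stra8 at -194: tggggtgaaaAGGTCAtcttgctcct
Stra8 at -38: ctggggtaccAGGTCAgttttttacc
Stra8 at -145: gcaagttgttACAATGTtttcaccaat
Gfra1 at -156: gaaagtgaggCCGGAAagagaaagag

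Across genotypes, no spermatogonial gene passed an adjusted p under 0.05. By the quasi-likelihood test of edgeR, 0 of the 29 genes were called, where 1 of all 15139 genes tested was called (0.00661%), which was Ccer1. At an unadjusted p under 0.05, 1 of the 29 was reached, Lhx1, against 2.89% of all genes, and with a fold change over 1.5 as well it was 0 of 29, against 1.18%. DESeq2 called 3 genes over all, none of them among the 29. The log2 fold changes (Ccer1-/- against Ccer1+/+) ran from -0.29 for Ret to 0.62 for Tspan8, with a median of 0.087 beside 0.039 for all genes. They were positive for 21 and negative for 8 of the 29 genes, and 55.4% of all genes were positive. The genotypes did not overlap for 2 of the 29, Lhx1 and Epcam, and for 8.34% of all genes.

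**Figure D2:**
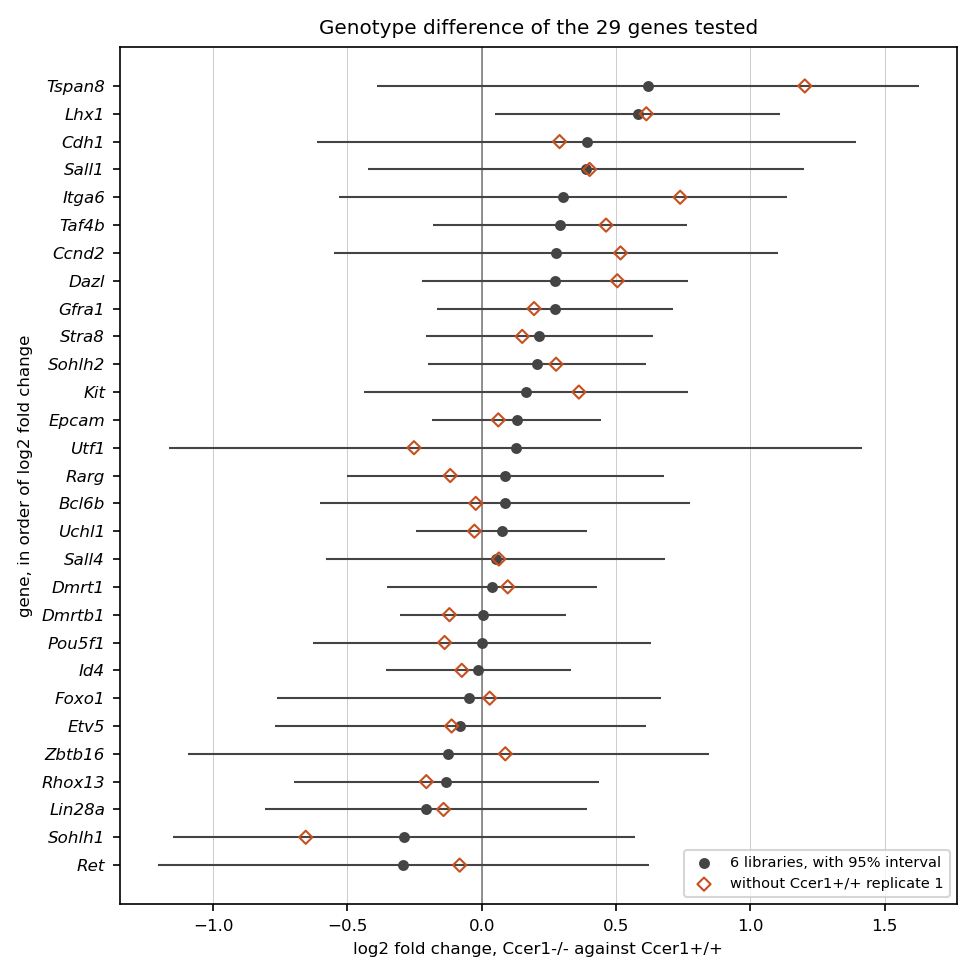
Log2 fold change of Ccer1-/- against Ccer1+/+ for the 29 genes tested, from all 6 libraries with its 95% interval (grey) and without Ccer1+/+ replicate 1 (orange diamonds, no interval drawn). All intervals but that of Lhx1 include 0, and the diamonds of Tspan8, Itga6 and Utf1 lie farthest from the grey points.

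Leaving out Ccer1+/+ replicate 1 changed the calls. It was chosen because earlier results of these data placed it near the Ccer1-/- libraries. Such a choice favours larger differences between the genotypes. Calls and adjusted p without it, here and below, therefore describe its influence and are not evidence of a genotype effect. With any other library left out, 1 gene was called over all and 0 of the 29. Of 15345 genes tested, 21.7% were then called, 9.21% higher and 12.5% lower in Ccer1-/-. Of the 29 genes, 2 (6.90%) were called, Dazl and Taf4b, both higher, and the median log2 fold change was 0.064. The log2 level of Ccer1+/+ replicate 1 less that of its group's other libraries went with the GC content of the transcript, with Spearman's rho of -0.73 over the 29 genes and -0.70 over 14460 genes, taken across genes that share these libraries. The part of base composition in these calls was not tested. Dazl transcripts have 36.5% GC and Taf4b transcripts 45.7%, where the median of all genes was 50.3%.

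Among the GDNF receptors, Gfra1 (chromosome 19 from 58235581 to 58455946 in GRCm38) had 7.08, 6.12 and 8.27 CPM in Ccer1+/+ and 8.24, 9.23 and 8.50 CPM in Ccer1-/- replicates. The groups overlapped, and the log2 fold change was 0.27 ± 0.19 (SE) with an adjusted p of 0.786 by edgeR. Ret, its signaling partner, had 1.80, 1.17 and 1.04 CPM in Ccer1+/+ and 1.60, 0.789 and 0.911 CPM in Ccer1-/- replicates. The highest value was that of Ccer1+/+ replicate 1, and the interval of the log2 fold change ran from -1.21 to 0.62.

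Of the transcription regulators of the stem cell state, 11 of 14 were tested. Lhx1, a LIM homeobox target of GDNF (chromosome 11 from 84517975 to 84525534 in GRCm38), had 2.84, 2.41 and 2.27 CPM in Ccer1+/+ and 3.69, 3.64 and 3.95 CPM in Ccer1-/- replicates. All Ccer1-/- libraries lay above all Ccer1+/+ libraries. The means were 2.51 ± 0.301 and 3.76 ± 0.164 CPM (SD, n = 3 each), and the log2 fold change was 0.58 ± 0.23 (SE). The unadjusted p was 0.0357 and the adjusted p 0.786 by edgeR, so the difference did not pass the correction. Without Ccer1+/+ replicate 1 it was 0.61 with an adjusted p of 0.109 by edgeR.

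Etv5 and Bcl6b, further GDNF targets, did not share that pattern. Etv5 had 20.9, 23.9 and 14.9 CPM in Ccer1+/+ and 21.3, 24.3 and 10.8 CPM in Ccer1-/- replicates. Replicate 3 was lowest in both genotypes and the genotypes overlapped. Bcl6b, a transcriptional repressor, had 4.39, 2.97 and 6.49 CPM in Ccer1+/+ and 4.80, 4.31 and 5.59 CPM in Ccer1-/- replicates, with replicate 3 highest in both. Id4 was the steadiest of the stem cell genes, at 20.0, 17.7 and 21.4 CPM in Ccer1+/+ and 19.3, 19.3 and 20.0 CPM in Ccer1-/- replicates. Its highest library was 1.21 times the lowest, and the interval of its log2 fold change ran from -0.36 to 0.33.

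Zbtb16 (PLZF), a zinc finger repressor that maintains the stem cell pool, had 5.34, 3.83 and 2.69 CPM in Ccer1+/+ and 4.86, 4.49 and 1.58 CPM in Ccer1-/- replicates. Foxo1, a forkhead factor of the same cells, had 8.48, 8.10 and 4.78 CPM in Ccer1+/+ and 9.04, 7.16 and 4.49 CPM in Ccer1-/- replicates. In both genes replicate 3 was the lowest of each genotype and the genotypes overlapped. Sall4 and Sall1, a pair of spalt zinc finger factors, were low. Sall4 had 2.35, 1.98 and 2.02 CPM in Ccer1+/+ and 2.40, 2.49 and 1.70 CPM in Ccer1-/- replicates. Sall1 had 1.05, 0.865 and 0.918 CPM in Ccer1+/+ and 1.48, 1.40 and 0.850 CPM in Ccer1-/- replicates.

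Pou5f1 (OCT4), a pluripotency factor, had 2.39, 2.10 and 3.43 CPM in Ccer1+/+ and 2.46, 2.85 and 2.61 CPM in Ccer1-/- replicates. Its means were 2.64 CPM in both groups. Utf1, a chromatin factor of undifferentiated cells, had 0.499, 0.433 and 1.78 CPM in Ccer1+/+ and 0.738, 1.09 and 1.09 CPM in Ccer1-/- replicates, with Ccer1+/+ replicate 3 the highest library. Taf4b, a TFIID subunit needed for the upkeep of the germ line, had 19.2, 12.2 and 12.7 CPM in Ccer1+/+ and 19.1, 17.6 and 17.4 CPM in Ccer1-/- replicates. Ccer1+/+ replicate 1 was the highest library and the other Ccer1+/+ libraries the lowest. The log2 fold change was 0.29 ± 0.21 (SE) with all libraries, adjusted p 0.786, and 0.46 ± 0.13 without Ccer1+/+ replicate 1, adjusted p 0.0422, both by edgeR. Without Ccer1+/+ replicate 2 it was 0.13 and without Ccer1+/+ replicate 3 0.16.

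Of the RNA-binding proteins, Dazl, which promotes translation in germ cells, repeated the pattern of Taf4b. Its level was 99.0, 55.3 and 61.4 CPM in Ccer1+/+ and 79.3, 85.2 and 96.6 CPM in Ccer1-/- replicates. The log2 fold change was 0.27 ± 0.22 (SE) with all libraries, adjusted p 0.786, and 0.51 ± 0.11 without Ccer1+/+ replicate 1, adjusted p 0.0188, both by edgeR. It was 0.075 without Ccer1+/+ replicate 2, 0.13 without Ccer1+/+ replicate 3 and 0.14 without Ccer1-/- replicate 3. Lin28a, which blocks the maturation of let-7 microRNAs, had 3.69, 3.28 and 2.45 CPM in Ccer1+/+ and 2.46, 2.61 and 3.10 CPM in Ccer1-/- replicates, and the groups overlapped.

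Among the markers, Epcam, shared by germ cells and many epithelia, had 26.2, 24.8 and 27.4 CPM in Ccer1+/+ and 27.5, 28.4 and 29.9 CPM in Ccer1-/- replicates. The groups did not overlap, yet the difference was small, with a log2 fold change of 0.13 ± 0.14 (SE) and an adjusted p of 0.804 by edgeR. Uchl1 had 37.8, 42.7 and 38.2 CPM in Ccer1+/+ and 41.4, 45.9 and 37.7 CPM in Ccer1-/- replicates. Its interval ran from -0.24 to 0.39 on the log2 scale. Cdh1 had 0.549, 0.618 and 0.551 CPM in Ccer1+/+ and 0.984, 0.850 and 0.425 CPM in Ccer1-/- replicates. Ccer1-/- replicate 3 was the lowest library of all and replicates 1 and 2 of that genotype were the highest.

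Itga6 and Tspan8, surface proteins used to enrich stem cells, moved with the libraries that stand apart. Tspan8 had 2.54, 1.24 and 0.674 CPM in Ccer1+/+ and 2.34, 2.55 and 2.06 CPM in Ccer1-/- replicates. Its log2 fold change was 0.62 ± 0.44 (SE) with an adjusted p of 0.786, and 1.20 ± 0.37 without Ccer1+/+ replicate 1 with an adjusted p of 0.0538, both by edgeR, so it did not pass in either. Without Ccer1+/+ replicate 3 it was 0.24. Itga6 had 10.8, 5.50 and 4.10 CPM in Ccer1+/+ and 10.8, 8.38 and 6.13 CPM in Ccer1-/- replicates. Its log2 fold change was 0.30 ± 0.37 (SE) with all libraries and 0.74 without Ccer1+/+ replicate 1, with an adjusted p of 0.0935 by edgeR. It was 0.13 without Ccer1+/+ replicate 2, 0.004 without Ccer1+/+ replicate 3 and 0.046 without Ccer1-/- replicate 1.

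All 9 differentiation genes were tested, and none was called in either set of libraries. Kit (chromosome 5 from 75574987 to 75656722 in GRCm38) had 24.3, 16.2 and 14.1 CPM in Ccer1+/+ and 24.8, 22.0 and 14.5 CPM in Ccer1-/- replicates. Stra8 had 9.68, 7.97 and 11.1 CPM in Ccer1+/+ and 11.6, 10.9 and 10.9 CPM in Ccer1-/- replicates. The groups overlapped in both genes. The log2 fold change of Kit was 0.17 ± 0.27 (SE), and that of Stra8 was 0.21 ± 0.19, with an interval from -0.21 to 0.64.

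Sohlh1 and Sohlh2, partner transcription factors that drive the start of differentiation, had opposite signs. Sohlh1 had 1.80, 4.27 and 3.55 CPM in Ccer1+/+ and 3.57, 2.00 and 2.25 CPM in Ccer1-/- replicates. Sohlh2 had 14.7, 11.1 and 11.4 CPM in Ccer1+/+ and 14.0, 13.7 and 15.2 CPM in Ccer1-/- replicates. Ccer1+/+ replicate 1 was the lowest library for Sohlh1 and above both other Ccer1+/+ libraries for Sohlh2. Without it, the log2 fold changes were -0.66 and 0.28, with adjusted p of 0.173 and 0.198 by edgeR. Over all libraries left out in turn they ran from -0.66 to -0.084 for Sohlh1 and from 0.086 to 0.28 for Sohlh2.

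Dmrtb1 had 638, 646 and 789.7 CPM in Ccer1+/+ and 648, 649 and 786 CPM in Ccer1-/- replicates. Replicate 3 was the highest library of each genotype, the genotypes overlapped, and the interval of the log2 fold change ran from -0.30 to 0.31. Dmrt1, which holds off meiosis in spermatogonia, had 19.8, 15.7 and 15.2 CPM in Ccer1+/+ and 17.6, 18.6 and 16.0 CPM in Ccer1-/- replicates. Ccnd2, the cyclin of the step from undifferentiated to differentiating cells, had 5.14, 3.46 and 2.57 CPM in Ccer1+/+ and 5.53, 5.46 and 2.61 CPM in Ccer1-/- replicates. For both, replicate 3 was lowest in each genotype. Rarg, the retinoic acid receptor of spermatogonia, had 2.39, 3.40 and 3.06 CPM in Ccer1+/+ and 2.71, 3.64 and 3.04 CPM in Ccer1-/- replicates. Rhox13, an X-linked homeobox gene, had 2.74, 2.84 and 2.69 CPM in Ccer1+/+ and 2.21, 2.37 and 2.98 CPM in Ccer1-/- replicates, and both genes overlapped between genotypes.

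**Figure D3:**
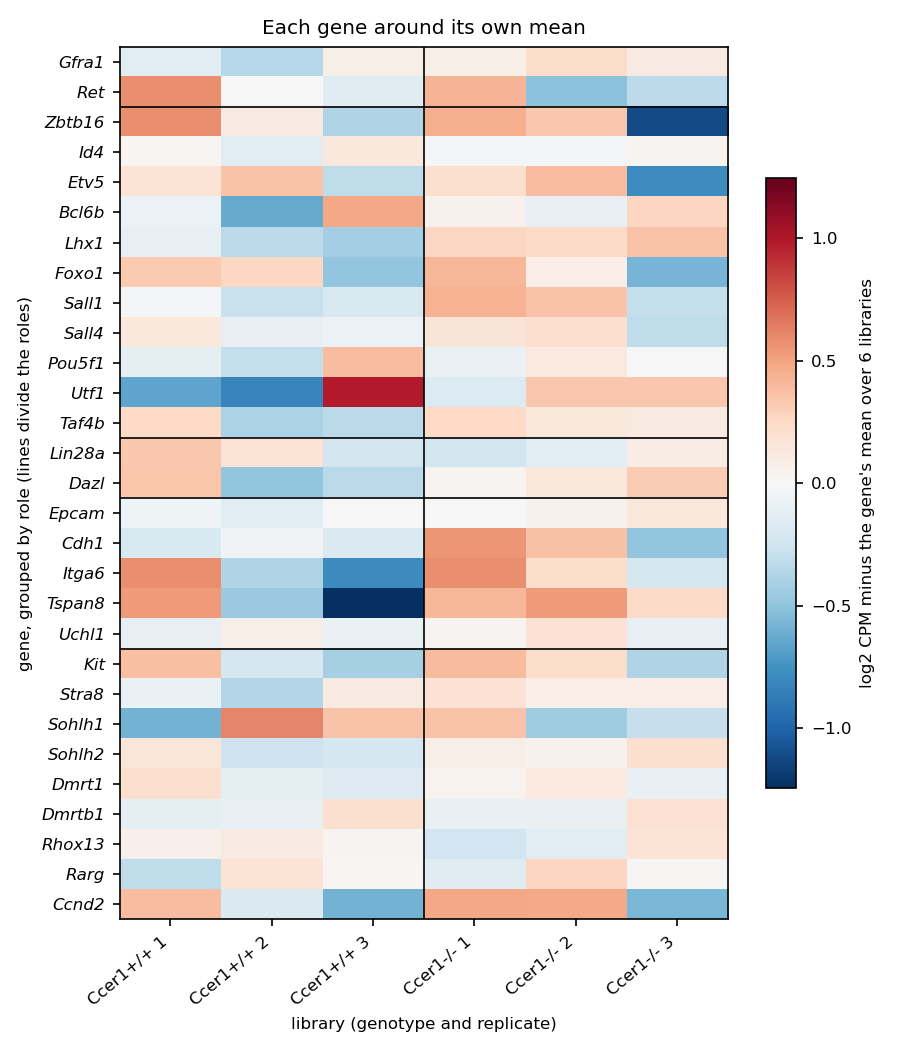
Log2 CPM of each of the 29 genes minus its own mean over 6 libraries, by library (columns) and by role (rows, divided by lines), red above and blue below the mean. Blue cells gather in replicate 3 of both genotypes for Zbtb16, Etv5, Foxo1, Itga6 and Ccnd2, and Ccer1+/+ replicate 2 is blue for Dazl and Taf4b where replicate 1 is red.

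Replicate 3 was the lowest library in both genotypes for 8 of the 29 genes (Zbtb16, Etv5, Foxo1, Itga6, Tspan8, Kit, Dmrt1 and Ccnd2) and for 19.8% of all genes. It was the highest in both for Dmrtb1, Epcam, Id4 and Bcl6b, 4 of 29, beside 14.8% of all genes. Among the 8, the log2 difference of replicate 3 from the mean of replicates 1 and 2 was largest for Zbtb16 in Ccer1-/- (-1.51) and for Tspan8 in Ccer1+/+ (-1.36). The same libraries had low levels of several groups of somatic transcripts. The summed level of 6 peritubular and muscle markers was 36.0 and 38.0 CPM in replicate 3 of Ccer1+/+ and Ccer1-/- and 98.1 to 148 CPM in the other libraries, with all 6 markers lowest in replicate 3 of both. The sum of 7 macrophage markers was 19.2 and 22.8 CPM beside 62.6 to 79.9, all 7 lowest there, and that of 15 Sertoli cell markers was 1118 and 1093 CPM beside 1330 to 1622, with 8 of 15 lowest there. The sum of 8 Leydig cell markers did not follow this, at 1045 and 938 CPM beside 903 to 1784, with Insl3 alone at 558 to 1287. Yet 5 of the 8 were lowest there. Their median log2 difference of replicate 3 from replicates 1 and 2 was -0.427 in Ccer1+/+ and -0.487 in Ccer1-/-. For 7 endothelial and blood markers the summed level was 42.6 and 34.2 CPM in replicate 3 beside 50.5 to 77.8, with 5 of 7 lowest there. The part of somatic cells in the low values of these 8 genes was not tested.

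**Figure D4:**
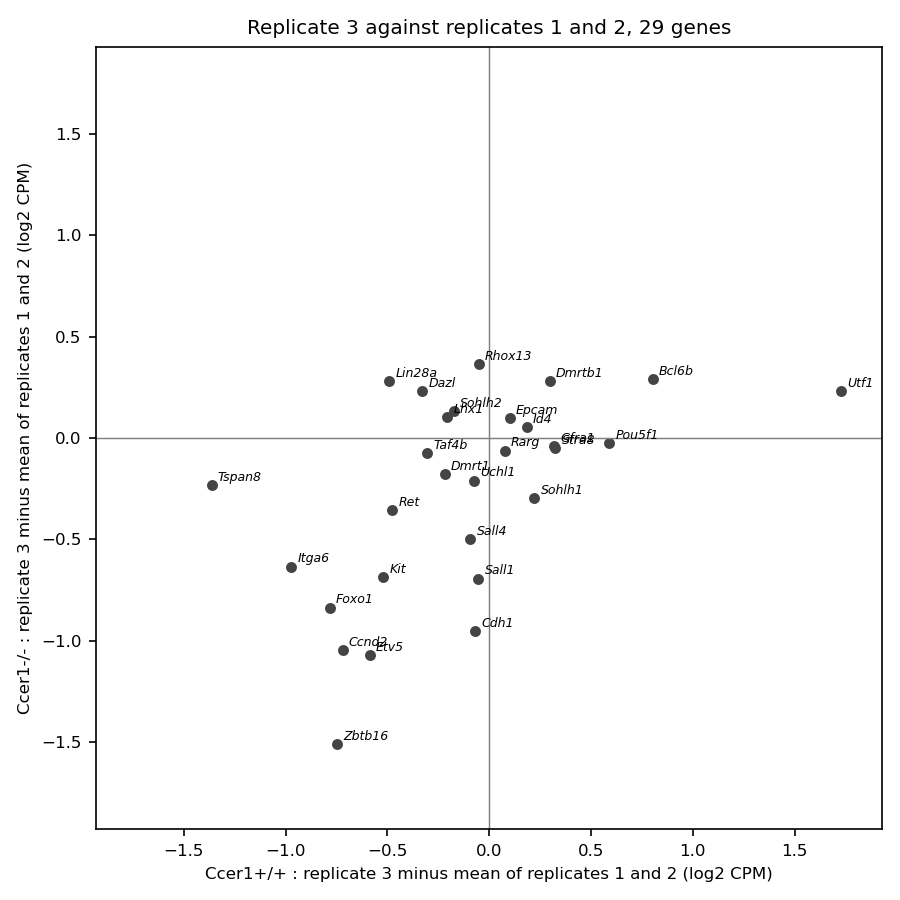
Log2 CPM of replicate 3 minus the mean of replicates 1 and 2 for the 29 genes, in Ccer1+/+ (horizontal axis) and in Ccer1-/- (vertical axis), 1 point per gene. Zbtb16, Etv5, Ccnd2, Foxo1, Kit, Itga6 and Tspan8 lie in the lower left, and Utf1 lies far to the right at 1.73 in Ccer1+/+.

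The surrounding pathways were read from lists of other genes. None of their genes was called with all libraries. Of the niche ligands and receptors, 21 of 25 were tested, with a median log2 fold change of 0.008. The fold changes were positive for 11 and negative for 10. Of the 21, 14 were lowest in replicate 3 of both genotypes, beside 19.8% of all genes. This list shares a gene with the macrophage markers above, so the counts are not separate. Kitl, the ligand of KIT, had a log2 fold change of 0.44, and Fgfr3, a receptor for fibroblast growth factors, -0.49, with adjusted p of 0.786 for both by edgeR. Without Ccer1+/+ replicate 1, 2 of the 21 were called higher, Kitl (0.84, adjusted p 0.0243) among them, and 1 lower, Fgfr3 (-0.82, adjusted p 0.0224), beside 9.21% and 12.5% of all genes. Of 20 retinoic acid genes, 18 were tested with a median of -0.038, and the receptor Rxra (-0.39) and the synthesis enzyme Aldh1a1 (0.33) had the smallest p. Without Ccer1+/+ replicate 1, 0 of the 18 were called higher and 2 lower, Rxra among them (-0.61, adjusted p 0.0292 by edgeR). Of 15 proliferation genes the median was -0.007, with 7 positive and 8 negative, and 1 was called higher and 3 lower without that library.

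Genes of the step after the spermatogonia had higher levels in Ccer1+/+ replicate 1 than in the other Ccer1+/+ libraries, by a median of 0.883 on the log2 scale. Of 23 other spermatogonial genes tested, 13 were positive, with a median of 0.086, and Uhrf1, a reader of hemimethylated DNA, had 102, 172 and 168 CPM in Ccer1+/+ and 108, 110.1 and 114 CPM in Ccer1-/- replicates. Without Ccer1+/+ replicate 1, 3 of the 23 were called higher and 1 lower, Uhrf1 (-0.69, adjusted p 0.00319 by edgeR). Of 15 genes of preleptotene and leptotene spermatocytes, the cells that enter meiosis, 12 were positive, with a median of 0.327. Without Ccer1+/+ replicate 1, 9 of the 15 passed, all higher in Ccer1-/-, and the median was 0.645, where 9.21% of all genes passed upward. Hormad1, a meiotic chromosome axis protein, had 52.5, 18.4 and 19.3 CPM in Ccer1+/+ and 43.0, 40.9 and 51.4 CPM in Ccer1-/- replicates. In Dazl and Taf4b too, Ccer1+/+ replicate 1 was the highest library and Ccer1+/+ replicates 2 and 3 were the lowest. Over all genes, 79.7% had Ccer1+/+ replicate 1 nearer to the Ccer1-/- mean than to its group's other libraries. This held for 16 of the 29 spermatogonial genes.

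Markers of the later germ cells of the labelled tissue were present. The summed levels of spermatocyte and round spermatid markers were 7130 to 8403 and 1765 to 1919 CPM, and 4 of 6 epididymis markers were at 0 in all libraries. Of the 35 genes, 7 share exon bases with an annotated gene on the opposite strand (Foxo1, Gfra1, Id4, Lin28a, Neurog3, Sall4 and Uchl1), from 2.9% of exon bases in Lin28a to 18.7% in Uchl1. Whether reads were counted by strand was also not given in the sources used here, so their values may include reads of the partner.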

How the data were processed

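RNA of 3 Ccer1+/+ and 3 Ccer1-/- adult testes was sequenced after oligo(dT) selection. The authors deposited estimated counts per Ensembl gene, unscaled. The notes to the files list StringTie 1.3.1, HISAT2, Bowtie2 2.2.8, fastp 0.18.0 and the build GRCm38, with no counting program (not given in the sources used here). Of 22259 genes, 20314 matched a symbol. Counts, whole for all 35 genes described, were rounded and analysed in R 4.3.3 with edgeR 4.0.16: filterByExpr (minimum count 10, minimum total 15), TMM scaling and the robust quasi-likelihood F test of genotype with no covariate, two-sided, adjusted over 15139 genes by Benjamini-Hochberg. SE is the log2 fold change over the root of F, and intervals are 95%. P values set the genotype difference against the spread among these samples, which includes the libraries that stand apart. No pair of libraries of the same genotype agreed within sampling noise. Exon length and transcript GC come from NCBIM37, gene positions and promoters from RefSeq (GRCm38.p6).

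The genes and lists were chosen with earlier results of these data known. All 35 genes are named, the tested ones with every library. Of other lists only genes among the 4 with the smallest p are named, except Insl3, given for its weight in the Leydig cell sum. The alternatives were other size factors, library totals, DESeq2 1.42.0, other filters, a replicate block and each library left out. The edgeR procedure was tested on simulated counts with known changes. These held no library that stands apart and no effect shared by replicate number. They therefore do not show how the procedure performs with such libraries. The Hi-C samples were not analysed here.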

Additional observations from a re-analysis of the deposited data

How the results depend on the processing

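Depth limited 6 of the 35 genes to 4 to 32 counts over all libraries. No spermatogonial gene was called under other size factors, library totals, DESeq2, other filters or the replicate block, and the number called ranged from 0 to 2 with each library left out. Over all genes DESeq2 called 3, unadjusted p under 0.05 with a fold change over 1.5 gave 179, and leaving out each library gave 1 to 3337. The 3337 came without Ccer1+/+ replicate 1, and the cause was not tested. The median log2 fold change of the 29 genes was 0.087, from 0.036 with at least 10 counts in every library (27 genes) to 0.130 with the replicate block, and from -0.013 to 0.127 with each library left out, the lowest without Ccer1-/- replicate 2. The size factors of DESeq2 left 18 of 29 positive.

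Log2 fold changes near 0 changed sign. Pou5f1, Dmrt1 and Dmrtb1 were -0.042, -0.001 and -0.035 with the size factors of DESeq2, -0.044, -0.003 and -0.037 with its test. They were -0.048, -0.010 and -0.045 when each library needed at least 10 counts. Pou5f1 was -0.004 without a filter, and Id4 was 0.024 with library totals. With each library left out, the range was -0.200 to 0.364 for Bcl6b, -0.076 to 0.097 for Dmrt1, -0.158 to 0.064 for Dmrtb1, -0.368 to 0.139 for Etv5, -0.339 to 0.127 for Foxo1, -0.131 to 0.006 for Id4 and -0.044 to 0.362 for Kit. It was -0.187 to 0.184 for Pou5f1, -0.117 to 0.15 for Rarg, -0.108 to 0.146 for Sall4, -0.064 to 0.084 for Uchl1, -0.253 to 1.00 for Utf1 and -0.432 to 0.181 for Zbtb16. Of the genes that kept their sign, all but Lhx1 (0.468 to 0.613) moved by over 1.5 times, among them Dazl (0.075 to 0.505), Taf4b (0.131 to 0.463), Itga6 (0.004 to 0.739), Tspan8 (0.239 to 1.20) and Ccnd2 (0.029 to 0.517).

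Replicate numbers were not used as a pairing in the main test. Deviations of same-numbered libraries correlated at 0.0578, 0.337 and 0.452 for replicates 1, 2 and 3. For each Ccer1+/+ replicate this was its highest correlation with any Ccer1-/- library. Ccer1+/+ replicate 3 correlated at -0.328 and -0.285 with Ccer1-/- replicates 1 and 2. The source of what same-numbered libraries share was not tested. The replicate block called 1 gene over all and 0 of the 29, with a median of 0.130. Ccer1-/- replicate 1 correlated better with Ccer1+/+ replicate 2 (0.26) than with its own number.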
